A study of Mus musculus with 14 samples.

Results

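The miR-23/27/24 microRNAs are made from a pair of gene clusters that arose as copies of each other. The a cluster holds the hairpins Mir23a, Mir27a and Mir24-2, and the b cluster holds Mir23b, Mir27b and Mir24-1. The members were the 10 listed mature names of these hairpins that head a column of the count table, out of 1695 mature miRNA names. They are mmu-miR-23a-3p, mmu-miR-23a-5p, mmu-miR-23b-3p, mmu-miR-27a-3p, mmu-miR-27a-5p, mmu-miR-27b-3p, mmu-miR-27b-5p, mmu-miR-24-3p, mmu-miR-24-1-5p and mmu-miR-24-2-5p, written below without the prefix for mouse. Of these, 5 arms come from the a cluster alone and 4 from the b cluster alone, and miR-24-3p comes from both. Small RNA had been sequenced from small extracellular vesicles, which a commercial kit had collected from primary neutrophils, taken as Ly6G+ bone marrow cells of WT BALB/c female mice. For 48 h these cells were exposed to the solvent DMSO (7 libraries) or to 27-hydroxycholesterol (27HC) at 10 µM, an oxidised form of cholesterol (7 libraries). No genotype other than WT and no other agent is given for either group. The labels do not say whether the 7 libraries of a group came from separate mice or cultures, so the p-values measure only the spread between these libraries, which may be technical. Each library's description carries a pair of consecutive numbers, with the same pairs in both groups, and what they mark is not given. The measurements describe vesicles and not the cells that released them.

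As background, the hairpins of a cluster are cut from 1 primary transcript, and each hairpin can give a guide strand, which is kept, and a passenger strand from its other arm, which is mostly degraded. The a cluster is known in blood-cell development, where the myeloid factor PU.1 activates it and it favours myeloid over B-cell fate. miR-27 is known to repress genes of lipid handling such as Abca1, a cholesterol exporter, miR-23a represses glutaminase, and miR-24 represses genes of the cell cycle and of DNA repair. The comparison asks whether 27HC changed the amount of these miRNAs in neutrophil vesicles, and whether the a and b clusters contributed alike.

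The mature sequences show which members can be told apart. They are from RefSeq (GRCm38.p6), which held 9 of the 10 members, and are written 5′ to 3′. The guide strands are shown first because the results turn on them, with the seed, bases 2 to 8, in capitals. miR-23b-3p is named only.
miR-23a-3p: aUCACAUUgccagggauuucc
miR-27a-3p: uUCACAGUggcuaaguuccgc
miR-27b-3p: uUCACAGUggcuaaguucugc
miR-24-3p: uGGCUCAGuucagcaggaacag

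miR-27a-3p and miR-27b-3p have the same seed and the same length of 21 bases, and differ by the substitution C19U, counted from 1 at the 5′ end with the base of miR-27a-3p first. A read that ends before base 19 is the same for both names, and how the authors counted such reads is not given in the sources used here. The part of such reads in the miR-27 results was not tested. Among the other names of the table that have a RefSeq mature sequence (1431 names with the members), 4 share a seed with a member for which RefSeq has a sequence, each time that of miR-24-3p. They were miR-5124b, miR-6369, miR-6410 and miR-6413, with 4, 67, 1 and 7 counts over all libraries, and none of them was abundant enough to be tested.

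The passenger strands of miR-24 are the only names that tell its hairpins apart. They are shown with the run of 16 bases that they share in capitals.
miR-24-1-5p: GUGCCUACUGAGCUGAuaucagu
miR-24-2-5p: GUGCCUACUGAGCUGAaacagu

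In GRCm38.p6 the a cluster lies on chromosome 8, plus strand, with Mir23a at 84208518 to 84208592, Mir27a at 84208672 to 84208758 and Mir24-2 at 84208815 to 84208921, a span of 404 bases. In the GENCODE M21 annotation no other gene overlaps Mir23a or Mir27a, and Mir24-2 overlaps an exon of the lincRNA Gm26532. The b cluster lies on chromosome 13, plus strand, with Mir23b at 63300484 to 63300557, Mir27b at 63300712 to 63300784 and Mir24-1 at 63301208 to 63301275, a span of 792 bases. It is within the gene 2010111I01Rik on the same strand, where Mir23b is intronic and Mir27b and Mir24-1 overlap annotated exons, and within an intron of Fancc on the other strand. The count table holds no positions, and the submitters' processing notes name GRCm39, so these coordinates place the hairpins and not the counts.

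Libraries held 112914 to 871189 counts, so that the limit of 3 counts that a count of 0 allows was 3.44 to 26.6 counts per 1000000 (CPM), for counting error only. All 42 pairs of libraries within a group differed by more than sampling noise. The 4 miRNAs fixed as neutrophil and myeloid markers, miR-223 and miR-142a arms, summed to 98570 to 182427 CPM of the raw totals in DMSO and 116349 to 130085 in 27HC libraries. Of the 4, miR-142a-3p and miR-142a-5p fell with 27HC. The sums of the 4 erythroid names (558 to 1173 over all libraries), 3 lymphoid names (1461 to 2354), 2 megakaryocyte and endothelial names (488 to 1151) and 6 stromal names (475 to 1435) were far lower, and the ranges of the groups overlapped in each of these lists. Only 1 of the 4 erythroid and 3 of the 6 stromal names were abundant enough to be tested. Of the tested names of these lists, miR-150-5p, a lymphoid name, fell, where 12.6% of all tested names fell or rose. No name of any list was at 0 in every library. The liver miRNA miR-122-5p had 1973 to 5428 CPM. The part of other cells in the results below was not tested. Libraries of replicates 1 to 4 stood apart from those of replicates 5 to 7 in both groups on the first principal component of the tested names, which held 36.5% of the variance, and the labels do not say what this split marks. The sets differed in depth, with 229324 to 871189 counts in replicates 1 to 4 and 112914 to 252014 in replicates 5 to 7. The part of depth in the split was not tested.

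The 10 members together held 2.81 ± 0.334% of the counts in DMSO and 2.68 ± 0.0675% in 27HC libraries (SD, n = 7). Of the 10, 5 passed the filter on low counts, and all 5 are 3p arms. A filter on a minimum count in 7 libraries can be passed through 1 group alone, but these 5 had at least 145 counts in every library. Mature miRNAs are of nearly equal length, so the CPM below, after TMM scaling, were not divided by length. Over all 14 libraries the order of the levels by mean CPM was miR-23a-3p, miR-24-3p, miR-27b-3p, miR-27a-3p and miR-23b-3p. They ranked 7th, 27th, 43rd, 44th and 58th among the 239 tested names. In each of the 14 libraries miR-23a-3p was above miR-24-3p, miR-24-3p above both miR-27 names, and miR-23b-3p below both. The neighbours miR-27b-3p and miR-27a-3p did not keep their order, since miR-27a-3p had more counts in 4 libraries and fewer in 10.

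**Figure D1:**
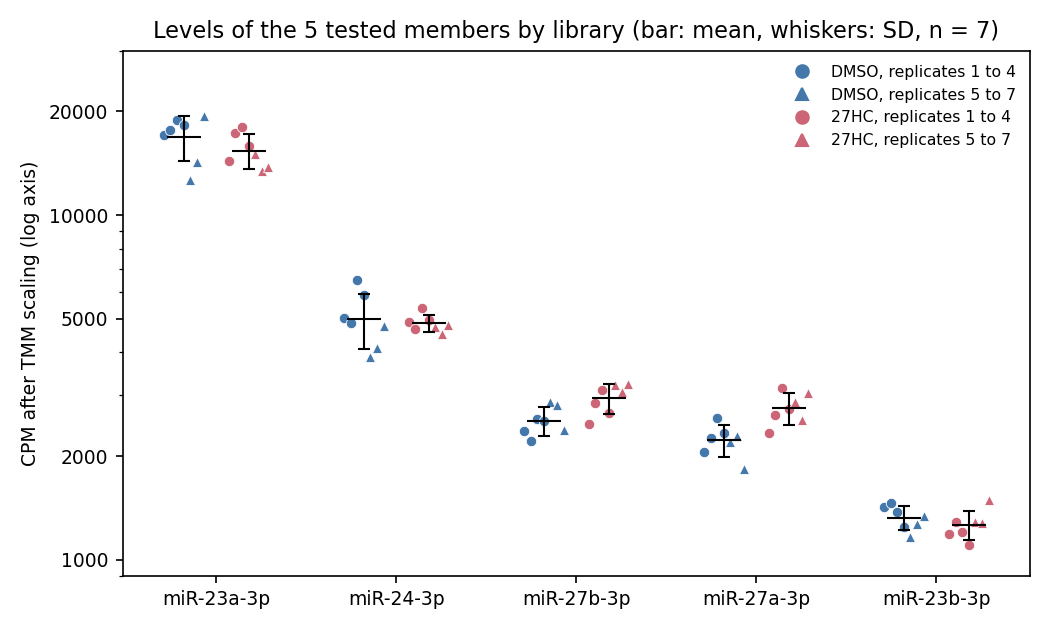
CPM after TMM scaling (log axis) of the 5 tested members in each library, DMSO in blue and 27HC in red, circles for replicates 1 to 4 and triangles for replicates 5 to 7, with the mean and SD of the 7 libraries of a group. miR-23a-3p lies at 12621 CPM or above and miR-23b-3p at 1492 CPM or below in every library, and for miR-27a-3p 5 of the 7 values with 27HC exceed all DMSO values.

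miR-23a-3p, the guide strand of the a cluster that was most abundant, had 12621 CPM in the lowest, 17696 in the median and 19454 in the highest DMSO library. With 27HC it had 13403, 15007 and 18030 CPM, so every 27HC library lay inside the range of the DMSO libraries. miR-24-3p, which both clusters give, had 3881, 4852 and 6491 CPM with DMSO and 4537, 4805 and 5365 CPM with 27HC, again inside the DMSO range. miR-23b-3p, the guide strand of Mir23b, had 1163, 1341 and 1463 CPM with DMSO and 1106, 1278 and 1492 CPM with 27HC. None of these 3 names stood higher or lower in either group beyond the spread of its libraries.

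The means of both miR-27 names were higher with 27HC. miR-27a-3p had 1837 CPM in the lowest, 2263 in the median and 2586 in the highest DMSO library, against 2337, 2731 and 3149 CPM with 27HC. Its groups overlapped, although 5 of the 7 values with 27HC exceeded all DMSO values and 5 of 7 DMSO libraries below the lowest with 27HC. miR-27b-3p had 2216, 2531 and 2879 CPM with DMSO and 2484, 3068 and 3247 CPM with 27HC. Here 4 of the 7 values with 27HC exceeded all DMSO values and 3 of 7 DMSO libraries below the lowest with 27HC.

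In edgeR's quasi-likelihood test over the 239 tested names, 1 of the 5 members passed a Benjamini-Hochberg adjusted p of 0.05, against 12.6% of all tested names in either direction and 3.77% higher with 27HC. That member was miR-27a-3p, which rose from 2226 ± 234 to 2759 ± 288 CPM (SD, n = 7), a fold of 1.24 and a log2 fold change of 0.31 with SE 0.093 (edgeR adjusted p 0.0369). miR-27b-3p, at 2537 ± 243 and 2946 ± 290 CPM, did not pass, at 0.22 with SE 0.089 (edgeR adjusted p 0.136, unadjusted 0.0271). miR-23a-3p was at −0.14 (SE 0.11), miR-23b-3p at −0.072 (SE 0.090) and miR-24-3p at −0.045 (SE 0.11), with edgeR adjusted p-values from 0.521 to 0.869. The median over all tested names was 0.010. The groups did not overlap in 0 of the 5 members, against 5.44% of the tested names in either direction and 2.09% with 27HC the higher.

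The call of miR-27a-3p was close to the threshold. It was lost when DMSO replicate 2, DMSO replicate 6 or 27HC replicate 3 was left out, with edgeR adjusted p-values of 0.0726, 0.0762 and 0.0865 and log2 fold changes of 0.30, 0.29 and 0.28, and it was also lost with limma-voom (adjusted p 0.0554), with upper-quartile scaling (edgeR adjusted p 0.143) and with no filter on low counts (edgeR adjusted p 0.683). miR-27b-3p passed with DESeq2 (adjusted p 0.0320), and in edgeR without DMSO replicate 5 (adjusted p 0.0437) or without 27HC replicate 1 (adjusted p 0.0396). With the counts of miR-27a-3p and miR-27b-3p added up, the sum went from 4762 ± 382 to 5705 ± 540 CPM (SD, n = 7). Any read counted under both names would enter this sum for each of them. With the scaling of the libraries kept as for the single names, the sum passed at 0.26 on the log2 scale with SE 0.082 (edgeR adjusted p 0.0475). With TMM factors computed anew after merging, which moved the median of all names from 0.010 to 0.064, it was at 0.32 (edgeR adjusted p 0.0205).

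Both replicate sets gave a positive log2 fold change for each miR-27 name. miR-27a-3p was at 0.29 (SE 0.11) in replicates 1 to 4 and at 0.43 (SE 0.16) in replicates 5 to 7, and miR-27b-3p at 0.26 (SE 0.099) and 0.24 (SE 0.14). None of these 4 values passed within its set, with edgeR adjusted p-values from 0.0937 to 0.491. With a term for the sets, miR-27a-3p passed at 0.31 (SE 0.090, edgeR adjusted p 0.0250) and miR-27b-3p, at 0.21 (SE 0.074), did not (edgeR adjusted p 0.0612), so again 1 of 5 members was called, against 16.3% of tested names in either direction. miR-24-3p and miR-23b-3p changed sign between the sets, from −0.095 and −0.14 in replicates 1 to 4 to 0.15 and 0.12 in replicates 5 to 7. An interaction term, which tests whether 27HC acted differently in the 2 sets, was called for 0 of the 5 members and 0 of all tested names, of which 24 had an unadjusted p under 0.05 (lowest p of a member 0.0772, edgeR adjusted p 0.481). Between the sets themselves, 1 of the 5 was called against 38.1% of tested names: miR-24-3p was lower in replicates 5 to 7 by a log2 difference of −0.23 (SE 0.087, edgeR adjusted p 0.0445).

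**Figure D2:**
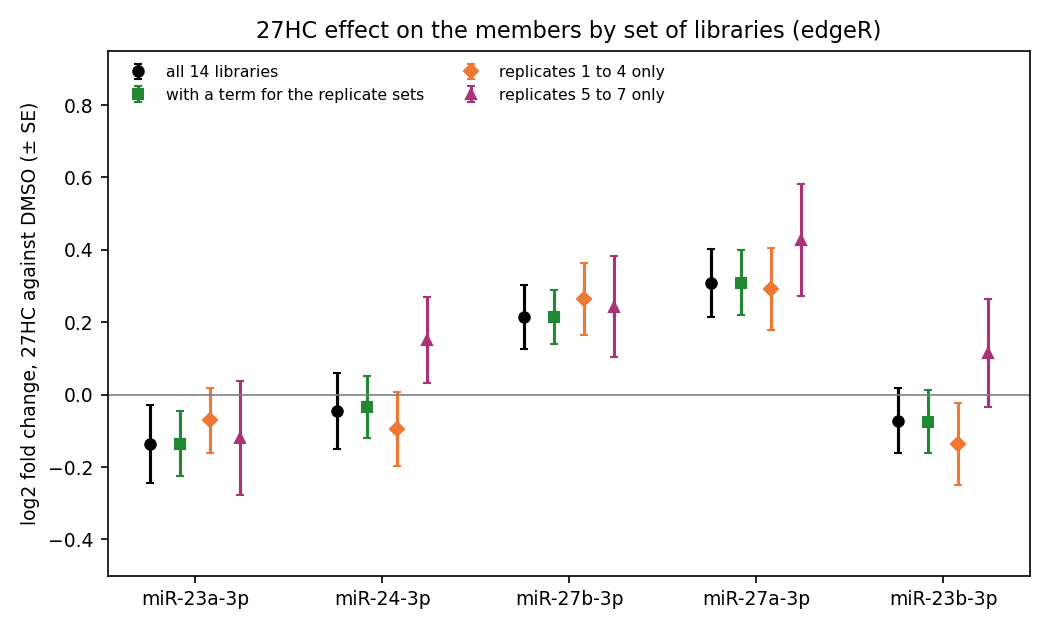
log2 fold change of 27HC against DMSO (± SE) from edgeR's quasi-likelihood test for the 5 tested members, over all 14 libraries, with a term for the replicate sets, and within replicates 1 to 4 and 5 to 7. Both miR-27 names lie above 0 in all 4 fits (0.21 to 0.43), and miR-24-3p and miR-23b-3p lie on either side of 0.

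The clusters contributed unequally, and not in the same proportion for miR-23 and miR-27. In DMSO libraries miR-23a-3p had 10.9 times the counts of miR-23b-3p in the lowest, 12.1 in the median and 14.7 in the highest library, and with 27HC 9.23, 12.1 and 14.9 times. The a cluster thus gave 92.6 ± 0.826% of the miR-23 3p counts in DMSO and 92.3 ± 1.25% in 27HC libraries (SD, n = 7). For miR-27 the a to b ratio was 0.766 in the lowest, 0.871 in the median and 1.02 in the highest DMSO library, and 0.828, 0.941 and 1.02 with 27HC. The a cluster gave 46.7 ± 2.99% and 48.3 ± 1.81% of the miR-27 3p counts. The ratio was larger for miR-23 than for miR-27 in all 14 libraries. These shares rest on how the authors counted reads that match both names, which the sources used here do not state. The related names miR-199a-3p and miR-199b-3p had equal levels, 567 ± 216 CPM with DMSO and 584 ± 184 CPM with 27HC (SD, n = 7). Reads may thus have been counted under each name that they match, and the part of such reads in these shares was not tested. The equal levels of this pair do not show how reads of names that differ in sequence, such as miR-27a-3p and miR-27b-3p, were counted.

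27HC was not found to shift the balance of the clusters. The log2 ratio of miR-23a-3p to miR-23b-3p was 3.66 ± 0.177 with DMSO and 3.60 ± 0.250 with 27HC (SD, n = 7). The difference was −0.059, with a 95% interval of −0.31 to 0.19 (exact two-sided permutation p 0.616). For miR-27a-3p to miR-27b-3p it was −0.19 ± 0.173 and −0.095 ± 0.105 and the difference was 0.095, with an interval of −0.07 to 0.26 (exact permutation p 0.237, or 0.473 adjusted for the 2 ratios). The effects of 27HC on miR-27a-3p, which was called, and on miR-27b-3p, which was not, were therefore not shown to differ. Within replicates 1 to 4 the differences were 0.061 and 0.030 (exact permutation p 0.629 and 0.60), so that of miR-23 changed sign, and within replicates 5 to 7 they were −0.22 and 0.18 (exact permutation p 0.300 and 0.100, the smallest possible there). The miR-23 difference was also 0.0075 without 27HC replicate 7. The miR-27 ratio was 0.871 to 1.02 with DMSO and 0.923 to 1.02 with 27HC in replicates 1 to 4. In replicates 5 to 7 it was 0.766 to 0.8125 and 0.828 to 0.942, with no overlap, so the sets add to its spread. With libraries permuted only within the sets, the exact permutation p was 0.557 for miR-23 and 0.0871 for miR-27 (0.174 adjusted for the 2 ratios). Over the 14 libraries the log2 ratios had SDs of 0.210 and 0.146, against 0.0919 and 0.0870 from counting error alone.

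**Figure D3:**
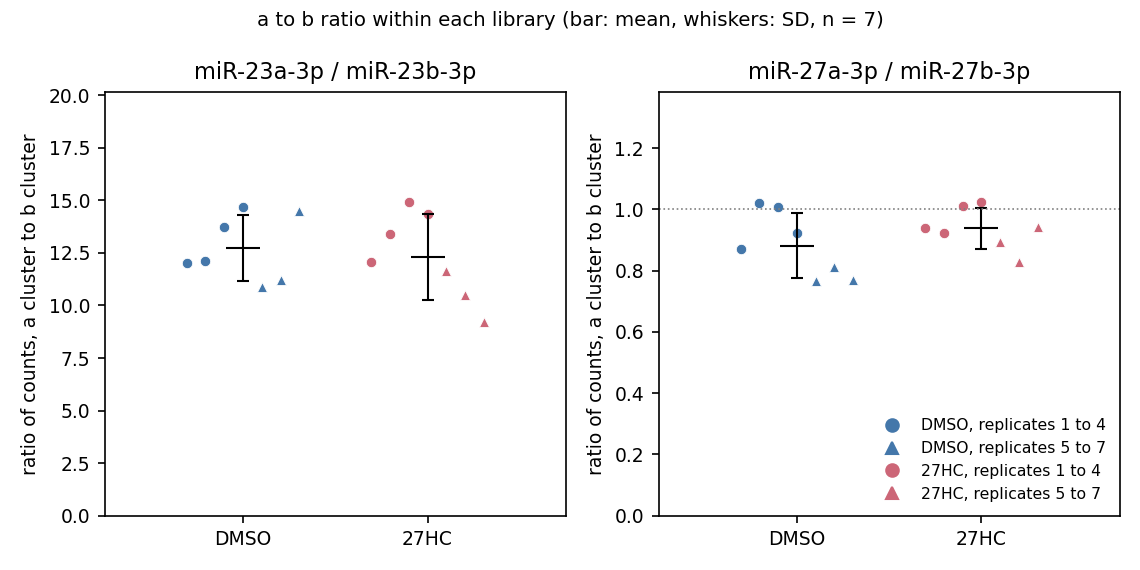
Ratio of counts of the a to the b paralog in each library, for miR-23 on the left and miR-27 on the right, on axes that start at 0, with circles for replicates 1 to 4, triangles for replicates 5 to 7, and the mean and SD of each group. The miR-23 ratios lie between 9.23 and 14.9 and the miR-27 ratios between 0.766 and 1.02, around the dotted line at a ratio of 1. Over all libraries the groups overlap in both, but in replicates 5 to 7 the miR-27 ratios with 27HC lie above those with DMSO.

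The ratios of miR-23 to miR-27 within a cluster need no scaling of the libraries. They were chosen after the values above had been seen, so they restate the higher miR-27 and lower miR-23 means and are given as a description, with no test. The count of miR-23a-3p was 7.69 ± 1.58 times that of miR-27a-3p with DMSO and 5.61 ± 0.679 times with 27HC (SD, n = 7), with a range of 5.72 to 10.6 against 4.50 to 6.59. The mean log2 ratio differed by −0.44, and by −0.51 to −0.36 with 1 library left out. The ratio of miR-23b-3p to miR-27b-3p was 0.530 ± 0.0886 with DMSO and 0.431 ± 0.0332 with 27HC, with a range of 0.404 to 0.660 against 0.388 to 0.478. Its mean log2 ratio differed by −0.28, and by −0.35 to −0.23 with 1 library left out. The groups overlapped in both ratios, and in each 5 of 7 DMSO libraries lay above the highest library with 27HC.

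The b cluster's ratio differed mostly in replicates 1 to 4, where miR-23b-3p was 0.493 to 0.660 times miR-27b-3p with DMSO and 0.388 to 0.478 times with 27HC (log2 difference −0.40). In replicates 5 to 7 it was 0.404 to 0.562 and 0.403 to 0.460 times, and the groups overlapped (log2 difference −0.13). In the a cluster, miR-23a-3p was 7.32 to 8.33 against 5.73 to 6.59 times miR-27a-3p in replicates 1 to 4 (log2 difference −0.37), and 5.72 to 10.6 against 4.50 to 5.28 times in replicates 5 to 7 (log2 difference −0.53).

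**Figure D4:**
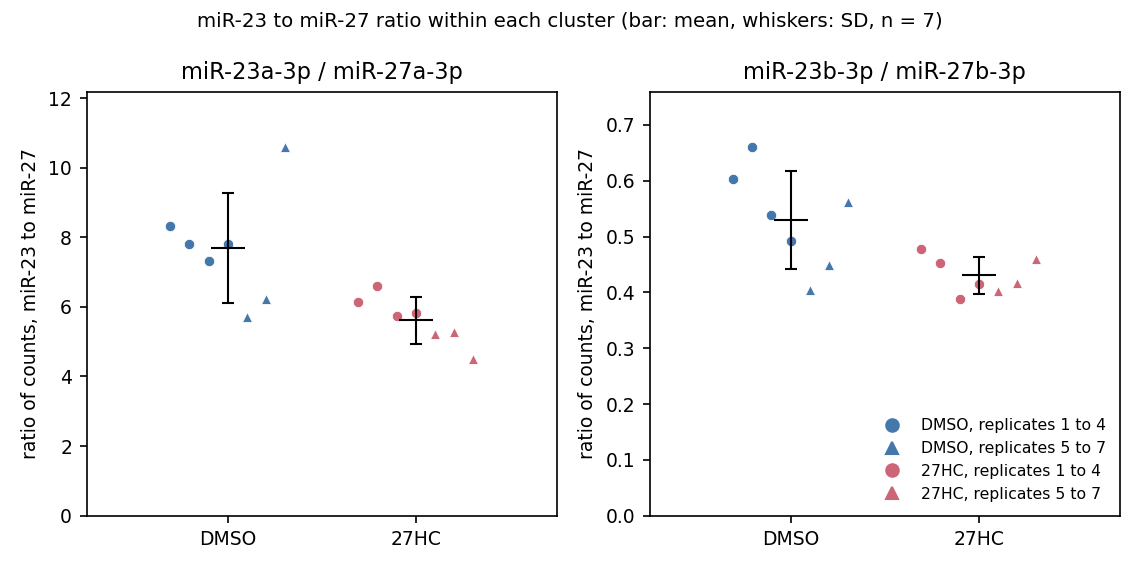
Ratio of miR-23 to miR-27 counts in each library for the a cluster on the left and the b cluster on the right, on axes that start at 0, with circles for replicates 1 to 4, triangles for replicates 5 to 7, and the mean and SD of each group. The means are 7.69 with DMSO and 5.61 with 27HC in the a cluster, and 0.530 and 0.431 in the b cluster, and the highest DMSO value of the a cluster, 10.6, is that of replicate 7.

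The 5 other members, all 5p arms, were too scarce to be tested. miR-23a-5p, the passenger strand of Mir23a, had 1 to 14 counts in a library, 56 in all DMSO and 50 in all 27HC libraries. It made up 0.185 ± 0.106% of the miR-23a counts in DMSO and 0.259 ± 0.255% in 27HC libraries (SD, n = 7). miR-27a-5p had 14 counts in DMSO and 7 in 27HC libraries and was at 0 in 4 libraries, and miR-27b-5p had 5 and 2 counts and was at 0 in 10. The guide strands of the same hairpins had 63841, 9290 and 9962 counts over all libraries, against 106, 21 and 7 for these passenger strands. Of miR-24, the a cluster's miR-24-2-5p had 2 counts in all and the b cluster's miR-24-1-5p had 5, each in 2 of 14 libraries, so the files cannot say how much of miR-24-3p came from either cluster. The other 5p arm of the b cluster, miR-23b-5p, which is not a member, had 2 counts in all.

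miR-24-3p had a near partner on the opposite strand. Mir3074-1 and Mir3074-2 are hairpins annotated antisense to Mir24-1 and Mir24-2, and miR-3074-5p is for 20 bases the reverse complement of miR-24-3p. These sequences are shown because they bear on what the miR-24-3p count holds, with the bases that pair in capitals.
miR-24-3p: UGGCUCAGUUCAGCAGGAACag
miR-3074-5p: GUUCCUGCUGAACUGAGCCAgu

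miR-3074-5p had 3149 ± 471 CPM with DMSO and 3193 ± 184 CPM with 27HC (SD, n = 7), the 38th highest mean. Its count was 0.564 to 0.682 times that of miR-24-3p in DMSO libraries and 0.603 to 0.755 times in 27HC libraries, so that both counts followed each other from library to library. Over the 14 libraries the log2 ratio of its counts to those of miR-24-3p had an SD of 0.100, the smallest of the 238 names set against miR-24-3p. The scarce arms matched too: miR-3074-2-3p, which is the reverse complement of 20 bases of miR-24-2-5p, had the same count as miR-24-2-5p in all 14 libraries, and miR-3074-1-3p the same as miR-24-1-5p in 13. Nearly all of these equal counts were 0: miR-24-2-5p had 1 count in each of 2 libraries, and miR-24-1-5p had 3 counts in 27HC replicate 1 and 2, unmatched, in DMSO replicate 2. Whether the authors' counting used the strand is not given in the sources used here, and without it reads of both hairpins cannot be told apart. The log2 fold change of miR-3074-5p was 0.018, with SE 0.095 (edgeR adjusted p 0.954), and that of the sum of miR-24-3p and miR-3074-5p was −0.020, with SE 0.099 (edgeR adjusted p 0.949), with the scaling of the libraries kept. With TMM factors computed anew after merging, where the median of all names was 0.060, the sum was at 0.043.

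**Figure D5:**
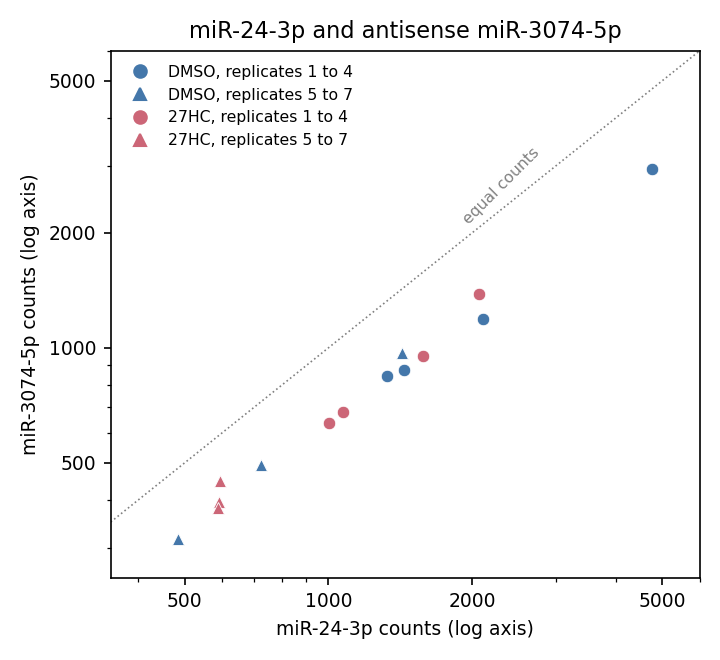
Counts of miR-3074-5p against those of miR-24-3p in each of the 14 libraries, both on log axes, with DMSO in blue, 27HC in red, circles for replicates 1 to 4 and triangles for replicates 5 to 7. All libraries lie in a narrow band below the dotted line of equal counts, at 0.564 to 0.755 counts of miR-3074-5p for each count of miR-24-3p.

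The members were also compared by how steady their ratios were across the 14 libraries, as the SD of the log2 ratio of counts, a description that needs no scaling and in which abundant names have less counting error. The name nearest to miR-27a-3p among the 238 others was miR-27b-3p (SD 0.146), and the reverse held too. Any reads counted under both miR-27a-3p and miR-27b-3p would make their ratio steadier, and the part of such reads was not tested. For miR-23a-3p the nearest was miR-24-3p (SD 0.148), while miR-27a-3p, from the same cluster, was 56th (SD 0.325) and miR-23b-3p 13th (SD 0.210). For miR-27b-3p its cluster partner miR-23b-3p was 12th (SD 0.235). The median SD over all other names was 0.486 to 0.522 for these members and miR-24-3p. These SDs pool the libraries of both treatments, so a difference between the groups enters them. The means of miR-27a-3p and miR-27b-3p were both higher in the treated libraries, and that of miR-23a-3p was lower. The part of the treatment in these places was not tested.

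The non-members nearest to miR-23a-3p were miR-25-3p (SD 0.157), miR-15b-3p (0.157) and miR-10a-5p (0.162). Those nearest to miR-27a-3p were miR-148a-3p (0.175), miR-16-5p (0.181) and miR-29a-3p (0.186). Those nearest to miR-27b-3p were miR-223-5p (0.154), let-7i-5p (0.195) and miR-21a-5p (0.202). After miR-3074-5p, those nearest to miR-24-3p were miR-15b-3p (0.127) and miR-10a-5p (0.165).

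Other miRNAs with known roles in blood-cell development or myeloid activation were taken from a list of 25, of which 23 were tested. With 27HC 2 rose and 5 fell, where 9 of all 239 tested names rose and 21 fell (12.6% in either direction), and the median log2 fold change of the 23 was 0.059, against 0.010 over all tested names. The list was chosen with earlier results of these data known, so its number of called names is a description and cannot be read against that share. miR-92a-3p, of the proliferative miR-17-92 cluster, rose by 0.71 (SE 0.13, edgeR adjusted p 0.00123), and miR-132-3p by 1.74 (SE 0.43, edgeR adjusted p 0.0122). The other listed names of the miR-17-92 cluster were not called. They were miR-17-5p at 0.00050 and miR-20a-5p at 0.075 (edgeR adjusted p 0.998 and 0.738). miR-142a-3p, which blood cells express widely, was at −1.53 (SE 0.20), and miR-146a-5p, a brake on NF-κB signalling, at −0.82 (SE 0.093), both called lower. miR-142a-5p (−0.74), miR-155-5p (−1.48) and miR-150-5p (−0.97) were called lower as well. miR-223-3p, the hallmark of neutrophils, did not pass, at −0.26 (SE 0.17, edgeR adjusted p 0.406). The rise of miR-27a-3p, at 0.31, was thus smaller than that of either name of the list that rose.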

How the data were processed

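The deposited values are the authors' counts per mature miRNA name and library, not normalised. Per the labels' protocols, the miRNeasy Micro kit was used for total RNA, and the QIAseq kit for miRNA libraries. The submitters' processing notes name GRCm39, mm39, R 4.1.2, edgeR and limma. The aligner, the counting tool, the treatment of reads that match several names, the use of strand and the use of molecular identifiers are not given in the sources used here, so a count may be of reads or of molecules. All libraries and columns were matched to a label (0 unmatched).

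The counts were fitted for all names with edgeR 4.0.16 (quasi-likelihood, TMM scaling, treatment as the only term) in R 4.3.3. The filterByExpr defaults (minimum count 10, minimum total 15) left 239 of 1695 names, which held 99.4% of the counts. A name was called at a p under 0.05 after Benjamini-Hochberg adjustment over the 239. The SE is the log2 fold change divided by the square root of F. On simulated counts of the 1695 names for this comparison, with 200 changed 4-fold, all 28 of the changed names left by the filter were called, and 0 unchanged ones. With no change simulated, 0 of 241 were called. The simulation held no replicate sets and no smaller changes. It therefore does not show how often a change of the size of that of miR-27a-3p would be called.

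Ratios were taken as log2 of counts with 0.5 added to each, and compared by a two-sided exact permutation test that enumerates the 3432 splits into 7 and 7. Of 7 planned ratios, 2 had a mean of at least 10 counts for both names in each group and were tested. The other 5 were not. Intervals of the differences were obtained by inverting that test in steps of 0.01. The Dixon rule, with a critical value of 0.568 for 7 libraries, was used to find outlying libraries. CPM of marker lists use raw totals.

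The members, lists, rules for naming miRNAs and alternatives were chosen with earlier results of these data known. Non-members named are those that share a seed with a member, the miR-3074 names, markers, and called names of the list of blood-cell miRNAs. The 3 tested names with the steadiest ratio to each of 4 members are named too. Beside these, miR-223-3p, miR-17-5p, miR-20a-5p, miR-199b-3p and miR-23b-5p were added after their values were seen. Ratios of miR-23 to miR-27 within a cluster, the merging of miR-24-3p with miR-3074-5p, the merged fits with the scaling kept, and the fit without DMSO replicate 7 that holds a term for the replicate sets were chosen after seeing the data. Alternatives used limma 3.58.1 and DESeq2 1.42.0 beside edgeR. Hairpins were placed by name in RefSeq and GENCODE M21 (GRCm38).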

Additional observations from a re-analysis of the deposited data

Results flagged for a closer look

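DMSO replicate 7 stood apart in the members' share of counts. There the 10 members took 3.53% of all counts, against 2.80% in the next highest DMSO library. It was the only outlying library by Dixon's criterion among 18 groups of 7, which covered the 5 tested members, the ratios of the a to the b cluster, the ratio of miR-3074-5p to miR-24-3p and the members' share. About 0.9 such groups would be flagged by chance. Of its 252014 counts, 5802 were miR-23a-3p. After TMM scaling, its miR-23a-3p level of 19454 CPM was the highest of the DMSO group, and DMSO replicate 3 followed at 18918 CPM. The log2 fold change of miR-23a-3p, −0.14 with all libraries, was −0.027 without DMSO replicate 7, where the median of all names moved from 0.010 to 0.093. It was also between −0.059 and −0.044 without DMSO replicate 3 or 4 or 27HC replicate 1, 6 or 7. None of these values was called.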

How the results depend on the processing

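The log2 fold change of miR-27a-3p was positive in all 30 alternatives (0.20 to 0.43), which include its sum with miR-27b-3p, and was called in 22. Besides the losses given above, it was not called in replicates 1 to 4 alone (edgeR adjusted p 0.0997) or 5 to 7 alone (0.181). With no filter on low counts the median of all names moved to −0.19, and miR-27a-3p stood at 0.20. miR-27b-3p was positive in 28 of 28 and called in 5, which also include a mean of at least 100 counts (0.31) and the fit without DMSO replicate 7 with a term for the replicate sets (0.25). The other members were called in none. The sign of miR-24-3p turned in replicates 5 to 7 (0.15), over names averaging 100 counts or more (0.059), with the miR-23 and miR-27 names merged (0.021), when merged with miR-3074-5p (0.043), and without DMSO replicate 7 with the term (0.046). Leaving out 1 library gave −0.11 to 0.086, with the sign turned in 9 of 14 such fits. miR-23b-3p turned in replicates 5 to 7 (0.12) and over names averaging 100 counts or more (0.023), and leaving out 1 library gave −0.10 to 0.0078. miR-23a-3p turned only without DMSO replicate 7 with the term (0.0026). The ratio of miR-23a-3p to miR-23b-3p turned in replicates 1 to 4 (0.061), and leaving out 1 library gave −0.11 to 0.0075. With the scaling of the libraries kept, merging the miR-23 and miR-27 names left miR-24-3p at −0.045, and its sum with miR-3074-5p was −0.020. The cause of the other turns was not tested.

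All names called numbered 30, against 12 in replicates 5 to 7, 48 without DMSO replicate 7 with the term, and 21 to 34 with 1 library left out. Replicate numbers were not shown to pair the libraries: correlations of same-numbered libraries were 0.069 to 0.60, and 6 of 14 libraries matched their own number best. These correlations used deviations from the mean of a whole group, so the split of the replicate sets enters them. They cannot decide whether the libraries were paired. With the replicate block 37 names were called, miR-27a-3p among them (0.31, edgeR adjusted p 0.0401), and an exact sign-flip test by pairs changed no call of the ratios of the a to the b cluster. Members with a mean under 10 counts could not be compared at this depth.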
